A study of Homo sapiens with 9 samples.

Results

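The genes described here were the amino acid transporters of the SLC1, SLC3, SLC7, SLC36, SLC38 and SLC43 families, the aminoacyl-tRNA synthetases and asparagine synthetase (ASNS). Members were the protein-coding genes whose symbol belonged to those SLC families, read as a letter followed by ARS with or without a final 1 or 2, or was EPRS or ASNS. The rule gave 72 genes of the 31589 in the count tables, namely 36 transporters, 18 cytosolic synthetases, 17 mitochondrial synthetases (symbols ending in 2) and ASNS. They were measured by bulk RNA sequencing in spinal cord organoids (SCOs), 3-dimensional cultures grown from human induced pluripotent stem cells. All 9 libraries came from the WTC line with genotype WT in the labels, and all organoids were kept in FGF. Vehicle SCOs received FGF alone, VPA SCOs received FGF with valproic acid (VPA, an antiepileptic drug that inhibits histone deacetylases), and VPA+Rapamycin SCOs received both drugs in FGF. Rapamycin is an inhibitor of the growth-controlling kinase complex mTORC1. The labels give 96 h of treatment and 3 libraries per group. The study's text gives a shorter VPA exposure in the section that reports the sequencing, while legends of other experiments give exposures of the labelled length. The study's results and figure legends describe sequenced SCOs of 3 clones carrying a SOX10 reporter, with each heatmap column as 1 clone. The labels give same-numbered libraries of the 3 groups a shared code without saying whether it marks a clone. The main test therefore left libraries unpaired. Its p-values measure the spread between these libraries, which by those legends are clones of a single line. There was no group with Rapamycin alone.

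Amino acid transporters bring amino acids across the plasma membrane or move them out of lysosomes. The SLC7A5 and SLC3A2 proteins pair to exchange glutamine for leucine and other large neutral amino acids, and leucine and arginine in turn activate mTORC1. Synthetases load each amino acid onto its tRNA, with largely separate sets for the cytosol and the mitochondrion. GARS and KARS encode both the cytosolic and the mitochondrial enzyme. Many of these genes are known targets of ATF4, a transcription factor that is translated when amino acids are short and also downstream of mTORC1. In the nervous system, SLC1 proteins clear glutamate around synapses and SLC38 proteins carry glutamine between glia and neurons.

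The libraries held 15290436 to 17417478 reads assigned to genes. A count of 3 reads, taken as the detection floor, corresponded to 0.172 to 0.196 CPM (counts scaled to library size), and this floor covers counting error only. Neural progenitor markers were high in every library, at 52400 to 62300 normalized reads summed over 7 genes. The 8 neuron markers summed to 23700 to 41500 reads in vehicle, 20900 to 23000 in VPA and 22100 to 24000 in VPA+Rapamycin. The 8 mesenchyme markers summed to 2280 to 4880, 9220 to 11800 and 4030 to 6110 reads. COL1A1 and COL1A2 held most of these sums, while COL3A1, DCN, LUM, PRRX1 and TWIST1 were each highest in vehicle library 3. SOX10, a neural crest marker, fell by 5.15 on the log2 scale with VPA (SE 0.29, adjusted p = 2.52e-06). It passed the filter on low counts only through the vehicle libraries in that comparison. With VPA, 5 of 8 neuron markers fell, 2 of 7 tested mesenchyme markers rose (COL1A1 and COL1A2, with 3 of the 7 estimates below 0), of 5 neural crest markers 3 fell and 1 rose, and of 7 progenitor markers 1 rose and 2 fell. With Rapamycin added to VPA, 5 of 7 mesenchyme markers and 1 of 7 progenitor markers fell, and 2 of 8 neuron and 2 of 5 neural crest markers rose. Of 4 astrocyte markers tested, which include the member SLC1A2, 1 rose with VPA and 1 fell with Rapamycin added. Beside these counts, 16.4% of all genes tested rose and 15.7% fell with VPA. With Rapamycin added to VPA, 3.01% of all genes rose and 3.73% fell. Markers of microglia or blood summed to at most 7.69 reads. The part of these shifts in the gene results was not tested, and in bulk RNA fewer cells of a type and less RNA per cell cannot be told apart. Vehicle libraries differed more from each other than VPA libraries did, with a chi-square per gene of up to 39.1 between vehicle libraries 1 and 3 against at most 7.56 between VPA libraries.

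With VPA, 16 of the 33 transporters tested rose and 3 fell, led by SLC7A10, SLC1A1 and SLC43A1 among the raised and SLC38A2 among the lowered. Transporters had a median log2 fold change of 0.49. Among 18 cytosolic synthetases 3 rose and none fell, with a median of 0.15. Among 17 mitochondrial synthetases 2 rose and 1 fell, with a median of 0.125. A call here is an adjusted p of at most 0.05 in edgeR's quasi-likelihood test, with the Benjamini-Hochberg adjustment over all genes tested. Across all 17360 genes tested, 32.1% were called, 16.4% as raised and 15.7% as lowered, with a median near 0 (-0.003). The share called was 57.6% for transporters, 16.7% for cytosolic and 17.6% for mitochondrial synthetases. The count of raised transporters fell from 16 to 10 when VPA library 3 was left out, and lay between 11 and 18 when any other library was. No cytosolic synthetase was lowered by DESeq2 either, and none had an unadjusted p under 0.05 in that direction. SLC38A8, SLC3A1 and SLC7A7 had too few reads for the test. SLC7A10 passed the filter on low counts only through the VPA libraries and SLC1A7 only through the vehicle libraries.

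**Figure D1:**
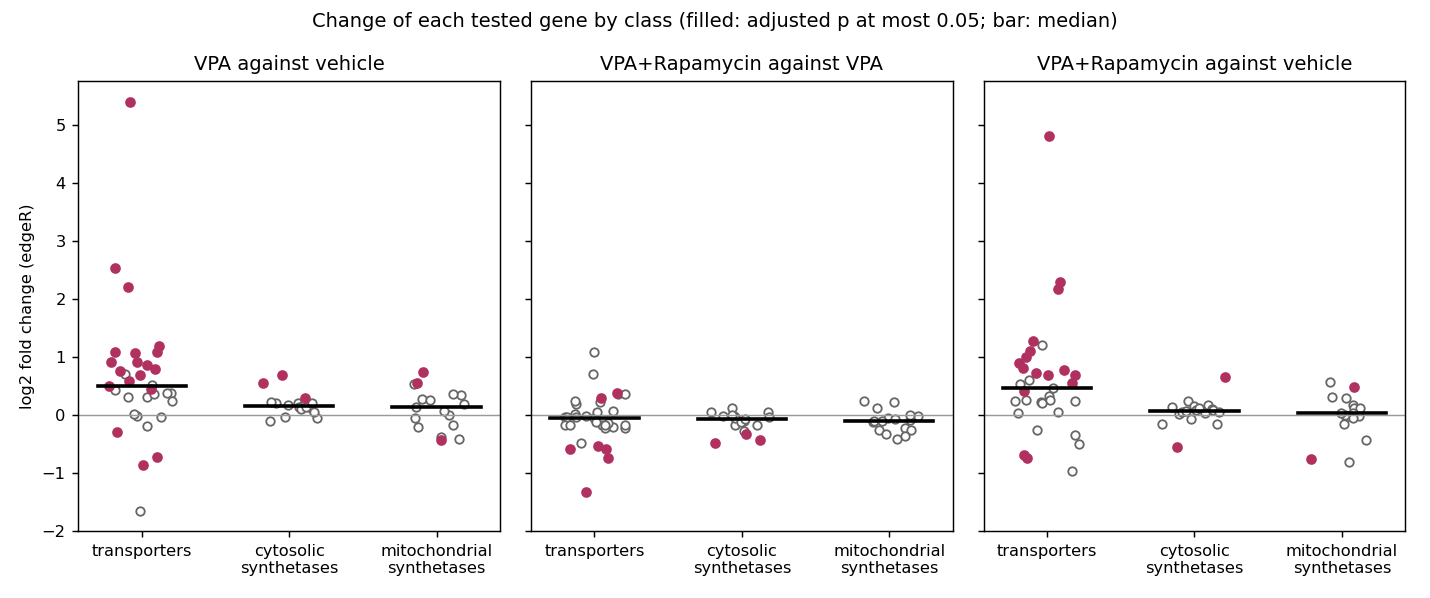
Log2 fold change (vertical axis) of each tested transporter and synthetase in the 3 comparisons, 1 panel each. Filled points passed the test at an adjusted p of 0.05, open points did not, and bars are class medians; the transporter median is 0.49 for VPA against vehicle and -0.055 for VPA+Rapamycin against VPA.

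In vehicle SCOs the most abundant transporter per length was SLC38A2, a sodium-coupled carrier of small neutral amino acids, at 71.3 ± 22 RPKM (SD, n = 3), the read count scaled to library size and gene length. It was followed by its relative SLC38A1 at 29.3 ± 1.8, the glutamine carrier SLC1A5 at 16.3 ± 4.1 and SLC3A2 at 13.7 ± 2.5. The last 2 did not differ beyond their spread. With VPA the order changed, and SLC7A3, a carrier of arginine and lysine, stood at 24.5 ± 0.84 beside SLC38A1 at 23.9 ± 0.83, while SLC38A2 was at 39.3 ± 2.6. Summed over the 36 genes, the transporter level was 205 to 242 RPKM in vehicle, 248 to 255 in VPA and 233 to 249 in VPA+Rapamycin. The cytosolic synthetases summed to 410 to 423, 454 to 478 and 428 to 445 on the same scale.

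The exchangers that pair with SLC3A2 included the strongest rise of all members. SLC7A10, which carries serine, glycine and D-serine, had 12, 3 and 8 reads in the vehicle libraries, 330, 349 and 358 in VPA and 195, 244 and 237 in VPA+Rapamycin. The gene lies on chromosome 19, 33208664 to 33225850 of GRCh38, on the minus strand. Every VPA library was far above every vehicle library, and the VPA+Rapamycin libraries lay between the other groups. The log2 fold change with VPA was 5.40 (SE 0.30, adjusted p = 2.05e-06), or 42.3-fold from a level near the floor. Of its exon bases 6.56% overlap another gene, mainly LRP3 on the opposite strand, whose mean count was 1490 per library. LRP3 had a log2 fold change of 0.06 (SE 0.12, adjusted p = 0.734).

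SLC7A5, the light chain for leucine and other large neutral amino acids, lies on chromosome 16 at 87830023 to 87869488, minus strand. Its reads numbered 769, 494 and 499 in vehicle, 1048, 918 and 1248 in VPA, and 668, 809 and 684 in VPA+Rapamycin. All VPA libraries were above all vehicle libraries, and the VPA+Rapamycin libraries overlapped vehicle. SLC7A5 rose 1.73-fold with VPA (log2 0.79, SE 0.16, adjusted p = 0.00337), a call that held when any library was left out. The SLC3A2 heavy chain, on chromosome 11 at 62856102 to 62888875, had 1452, 977 and 1010 reads in vehicle, 1606, 1396 and 1628 in VPA, and 1399, 1552 and 1160 in VPA+Rapamycin. Its log2 fold change with VPA was 0.36 (SE 0.13) and missed the threshold with an adjusted p of 0.0587. Vehicle library 1 was the highest of its group, and without it the adjusted p was 0.00158; it also passed by DESeq2 (0.0452), upper-quartile scaling (0.0468), no filter (0.027) and all 9 libraries fitted together (0.0393).

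SLC7A8, a second light chain for neutral amino acids, had 229, 131 and 277 reads in vehicle and 465, 492 and 451 in VPA. It rose 2.11-fold (log2 1.08, SE 0.21, adjusted p = 0.00334), with no overlap between the groups. SLC7A11, the cystine and glutamate exchanger that feeds glutathione synthesis, had 71, 81 and 90 reads in vehicle, 143, 90 and 98 in VPA and 35, 30 and 63 in VPA+Rapamycin. Its VPA and vehicle libraries touched at 90 reads, and the log2 fold change of 0.37 (SE 0.25) did not pass (adjusted p = 0.283). SLC7A6 gave a log2 value of 0.02 (adjusted p = 0.949), although 55.6% of its exon bases are shared with another gene.

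All 4 genes from SLC7A1 to SLC7A4 rose with VPA, beside 16 of 33 transporters and 16.4% of all genes. This grouping was chosen after their values were seen, so the count tests nothing about these genes as a set. The first 3 carry arginine, lysine and ornithine, and SLC7A4 is their relative by sequence. SLC7A3 went from 545, 337 and 287 reads in vehicle to 922, 870 and 1011 in VPA, a log2 fold change of 1.19 (SE 0.18, adjusted p = 0.000801). SLC7A1 had 1598, 1192 and 1184 reads in vehicle and 2057, 2028 and 2175 in VPA (log2 0.58, SE 0.11, adjusted p = 0.00293). In neither gene did the groups overlap. SLC7A4 rose by 0.91 and SLC7A2 by 0.68 on the log2 scale, with adjusted p-values of 0.0097 and 0.0292. The SLC7A2 call was lost without vehicle library 2 or any VPA library (adjusted p 0.0751 to 0.0908), and the SLC7A4 call without VPA library 3 (0.0508).

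Among the glutamate and neutral amino acid carriers of the SLC1 family, SLC1A1 and SLC1A4 rose and none of the 7 was called as lowered. SLC1A7 had 25, 14 and 10 reads in vehicle and 2, 7 and 7 in VPA, with no overlap. Its log2 value of -1.66 (SE 0.60, adjusted p = 0.0536) missed the threshold, and it passed the filter on low counts only through the vehicle libraries. SLC1A1, the neuronal carrier of glutamate and cysteine on chromosome 9 at 4490444 to 4587469, had 60, 38 and 41 reads in vehicle, 293, 254 and 297 in VPA, and 238, 244 and 224 in VPA+Rapamycin. Vehicle stood apart from both treated groups, and the rise with VPA was 5.76-fold (log2 2.53, SE 0.20, adjusted p = 1.69e-05). SLC1A4, a carrier of serine and other small neutral amino acids, rose by 0.86 on the log2 scale (SE 0.17, adjusted p = 0.00365). The glial glutamate carriers gave log2 values of 0.70 for SLC1A2 (adjusted p = 0.078) and -0.03 for SLC1A3 (adjusted p = 0.864). SLC1A5, the main glutamine carrier of dividing cells, had 1163, 797 and 671 reads in vehicle, 1220, 1138 and 1373 in VPA and 1073, 1110 and 971 in VPA+Rapamycin. In raw reads vehicle library 1 was above the lowest VPA library, while normalized counts just separated (at most 1140 in vehicle, at least 1160 in VPA). The SLC1A5 log2 fold change of 0.43 (SE 0.16) missed the threshold (adjusted p = 0.0596). It passed without vehicle library 1 (0.00134), by DESeq2 (0.0351), with no filter (0.00912) and with all 9 libraries fitted together (0.0296).

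The facilitative carriers of large neutral amino acids, SLC43A1 and SLC43A2, both rose. SLC43A1, on chromosome 11 at 57484534 to 57515786, had 44, 22 and 21 reads in vehicle, 140, 156 and 126 in VPA, and 130, 167 and 108 in VPA+Rapamycin. It was 4.63-fold higher with VPA (log2 2.21, SE 0.30, adjusted p = 0.000356), and no treated library came down to the vehicle range. SLC43A2 rose by 0.49 on the log2 scale (SE 0.13, adjusted p = 0.0161), a call lost without VPA library 2 (0.0541) or 3 (0.0875).

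The SLC38 family moved in both directions. SLC38A2, on chromosome 12 at 46358189 to 46372867, had 6517, 5836 and 10376 reads in vehicle, 4640, 4179 and 4275 in VPA, and 5320, 4377 and 4960 in VPA+Rapamycin. Vehicle was above both treated groups in every library, and library 3 was its highest. The gene fell by 0.87 on the log2 scale with VPA (SE 0.18, adjusted p = 0.00399). Without vehicle library 3 the value was -0.58 (adjusted p = 7.5e-05). SLC38A1 fell by 0.30 (SE 0.09, adjusted p = 0.0308), a call lost without vehicle library 2 or any VPA library (0.0809 to 0.135), or with no filter on low counts (0.0571). SLC38A10, a family member with a less known role, went from 786, 766 and 620 reads to 1394, 1528 and 1918 (log2 1.07, SE 0.14, adjusted p = 0.00028). The glutamine carriers SLC38A5 and SLC38A3 rose by 1.09 (SE 0.37, adjusted p = 0.0417) and 0.91 (SE 0.27, adjusted p = 0.0252). Both calls were lost without any single VPA library (0.0664 to 0.127), and that of SLC38A5 also without vehicle library 2 (0.134).

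Through transporters of the lysosomal membrane amino acids reach the mTORC1 machinery. Of 3 such carriers (SLC36A1, SLC38A7 and SLC38A9) 2 rose with VPA, beside 16.4% of all genes raised. This grouping was chosen after their values were seen and is not a full list of lysosomal carriers. SLC36A4, which fell, and SLC7A14 (log2 -0.19, adjusted p = 0.61) were left out of it. SLC36A1, a proton-coupled exporter on chromosome 5 at 151437046 to 151492381, had 258, 281 and 289 reads in vehicle, 427, 504 and 548 in VPA, and 522, 398 and 500 in VPA+Rapamycin. Both treated groups were above vehicle in every library, and the log2 fold change with VPA was 0.75 (SE 0.14, adjusted p = 0.00279). SLC38A9, the arginine sensor of the pathway on chromosome 5 at 55625845 to 55773194, had 282, 366 and 333 reads in vehicle, 479, 469 and 474 in VPA, and 604, 530 and 650 in VPA+Rapamycin. The groups lay in that order with no overlap. SLC38A9 passed with VPA at a log2 fold change of 0.45 (SE 0.15, adjusted p = 0.0415), but not without vehicle library 1 or any VPA library (0.0796 to 0.131), nor among protein-coding genes only (0.0522). SLC36A4, a carrier of proline and tryptophan, was lower in every VPA library (1137, 1094 and 998 reads) than in vehicle (1662, 1442 and 1985), and fell by 0.73 on the log2 scale (SE 0.13, adjusted p = 0.00187).

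**Figure D2:**
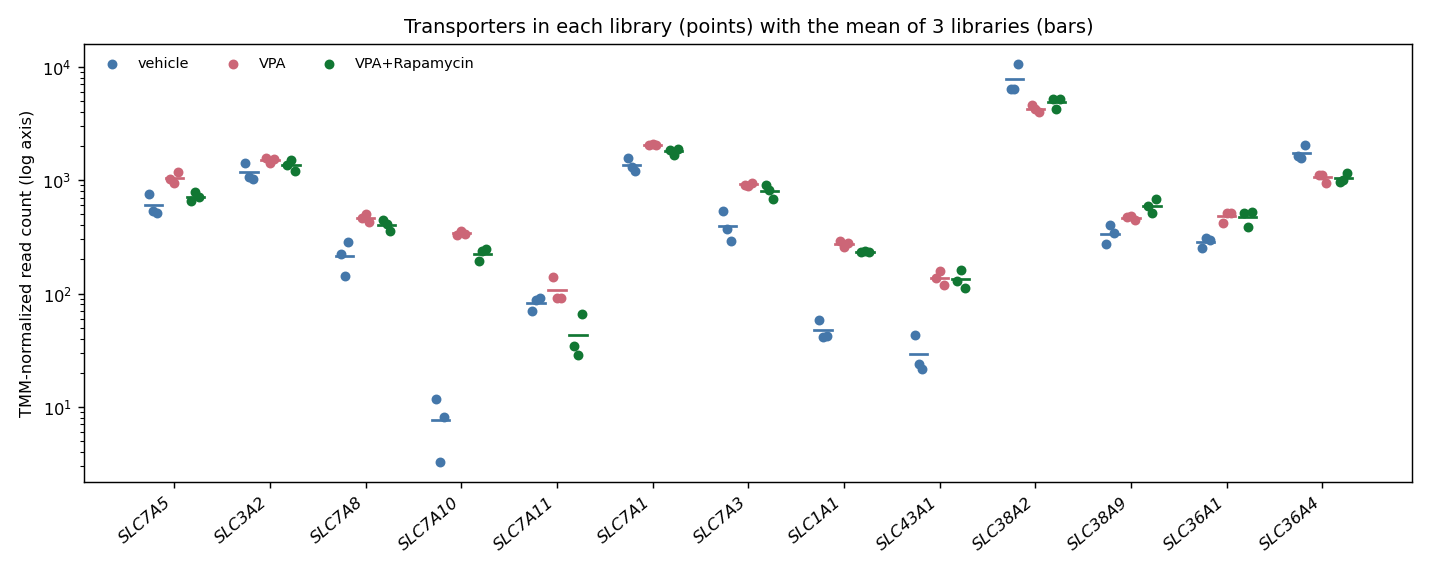
TMM-normalized read counts (log axis) of 13 transporters in each of 9 libraries, with bars at the mean of 3 libraries per group. SLC7A10, SLC1A1 and SLC43A1 show both treated groups far above vehicle, SLC38A2 and SLC36A4 show them below it, and SLC7A5 and SLC7A11 are lower with VPA+Rapamycin than with VPA.

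Of 35 synthetases, 29 did not pass with VPA. In vehicle SCOs QARS led per length at 50 ± 8.8 RPKM, followed by SARS at 42.7 ± 1.1, a gap within the spread of QARS. With VPA the 3 raised cytosolic enzymes were WARS, TARS and GARS, for tryptophan, threonine and glycine. TARS, on chromosome 5 at 33440696 to 33469539, had 1668, 1612 and 1625 reads in vehicle, 2365, 2518 and 2694 in VPA, and 1863, 1828 and 1600 in VPA+Rapamycin. All VPA libraries were above those of the other groups, which lay close to each other. TARS rose 1.46-fold with VPA (log2 0.55, SE 0.10, adjusted p = 0.00183). WARS, on chromosome 14 at 100333788 to 100376805, had 844, 869 and 840 reads in vehicle, 1449, 1456 and 1453 in VPA, and 1434, 1412 and 1336 in VPA+Rapamycin, so that the treated groups lay together above vehicle. It rose 1.62-fold with VPA (log2 0.69, SE 0.11, adjusted p = 0.000835). The WARS and TARS calls held when any library was left out. GARS passed narrowly (log2 0.30, SE 0.10, adjusted p = 0.0495), and not without vehicle library 1 or 2 or any VPA library (0.0603 to 0.181), nor with no filter on low counts (0.0575) or protein-coding genes only (0.0672).

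The multi-synthetase complex holds 8 of the synthetases (DARS, EPRS, IARS, KARS, LARS, MARS, QARS and RARS), a grouping made after their values were seen. None of these 8 passed with VPA, beside 32.1% of all genes called. Their log2 fold changes ran from -0.03 to 0.22, with 2 of 8 raised at an unadjusted p under 0.05 and none called by DESeq2. The 10 cytosolic enzymes outside the complex ran from -0.11 to 0.69. The medians were close, at 0.13 in the complex and 0.18 outside it, and a difference between these groups was not tested. Of the partner and related genes outside the rule, 3 of 13 rose and 1 fell (30.8%), close to the 32.1% of all genes. The raised ones were AIMP2, a scaffold of the complex (0.53, adjusted p = 0.0109), FARSB, a subunit of the phenylalanine enzyme (0.60, adjusted p = 0.00314), and GATB of the mitochondrial glutaminyl-tRNA pathway (0.45, adjusted p = 0.0215). PSTK, which acts on selenocysteine tRNA, fell by 0.71 (adjusted p = 0.0244).

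Among mitochondrial synthetases, 2 of 17 rose and 1 fell with VPA. MARS2, for methionine, rose by 0.54 (SE 0.13, adjusted p = 0.0105), except without VPA library 2 (0.0617). HARS2, for histidine, fell by 0.43 (SE 0.13, adjusted p = 0.0261). This last call was lost without vehicle library 2 or VPA library 1 or 2 (0.06 to 0.131) and with no filter on low counts (0.0535), and 15.8% of its exon bases are shared with neighbouring genes. The other 14 did not pass, and their levels in vehicle ran from 0.783 for SARS2 to 31.3 for IARS2, in RPKM. Of SARS2's exon bases 57% are shared with other genes, so its level is uncertain.

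ASNS, which makes asparagine and is a standard readout of ATF4, was low in every library. It had 46, 27 and 43 reads in vehicle, 31, 17 and 29 in VPA, and 24, 41 and 22 in VPA+Rapamycin. All groups overlapped. Its log2 fold change with VPA was -0.66 (SE 0.37, adjusted p = 0.188). The level in vehicle was 0.536 ± 0.12 RPKM. ASNS lies on chromosome 7 at 97852118 to 97872542, and 44.6% of its exon bases are shared with other genes, mainly the same-strand transcript AC079781.5, which had 65.9 reads per library against 31.1 for ASNS. AC079781.5 fell by 1.21 on the log2 scale with VPA (SE 0.31, adjusted p = 0.0135). How reads in the shared bases were assigned is not given in the sources used here, so the ASNS values are uncertain.

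The ASNS promoter holds the amino acid response element, a site where ATF4 and C/EBP proteins bind. Its core, TGATGNAA (TTNCATCA on the other strand), was searched on both strands from 250 bases before to 50 after each start site in RefSeq promoters of GRCh38.p14. Of 72 members 57 had a promoter entry, and 12 of these (21.1%) held the letters, against 1270 of all 35116 promoters (3.62%). They were in 6 of 14 cytosolic synthetases (42.9%), 1 of 14 mitochondrial synthetases (7.14%), 4 of 28 transporters (14.3%) and ASNS. The stretches below are from ASNS as the reference case, from TARS and CARS, which fell with Rapamycin, from IARS and MARS, which did not pass, and from SLC7A1. The match is in capitals, and each is written along the gene's own strand.
ASNS: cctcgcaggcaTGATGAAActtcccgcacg
TARS: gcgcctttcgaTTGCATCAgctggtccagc
CARS: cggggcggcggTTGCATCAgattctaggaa
IARS: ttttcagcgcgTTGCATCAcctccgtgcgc
MARS: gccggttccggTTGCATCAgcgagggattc
SLC7A1: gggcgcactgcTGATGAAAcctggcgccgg

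These stretches lie at chr7:97872458-97872487 (ASNS, minus strand), chr5:33440956-33440985 (TARS, plus), chr11:3057407-3057436 (CARS, minus), chr9:92293692-92293721 (IARS, minus), chr12:57488053-57488082 (MARS, plus) and chr13:29595663-29595692 (SLC7A1, minus). The match starts 68 bases before the start site in ASNS and within 13 bases of it in the other 5. TARS, CARS, IARS and MARS share the same 8 letters, TTGCATCA, so the element is read on the opposite strand. The other matches were in AARS, NARS, YARS2, SLC1A3, SLC38A1 and SLC3A2. With VPA the members holding a match ranged from SLC7A1 and TARS, which rose, through IARS (log2 0.22, adjusted p = 0.0988), MARS (0.10, adjusted p = 0.462) and CARS (-0.11, adjusted p = 0.599), to SLC38A1, which fell, and ASNS (-0.66, adjusted p = 0.188). WARS and SLC7A10, with larger rises, held no match in these windows. Of the other members that fell with Rapamycin added to VPA, SLC7A5, SLC7A10 and SLC38A4 held no match. SLC7A11, YARS and SLC43A3 had no promoter entry. SLC1A3, which holds a match, rose in that comparison (log2 0.29, adjusted p = 0.0236). A link between the match and the change with Rapamycin was not tested.

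**Figure D3:**
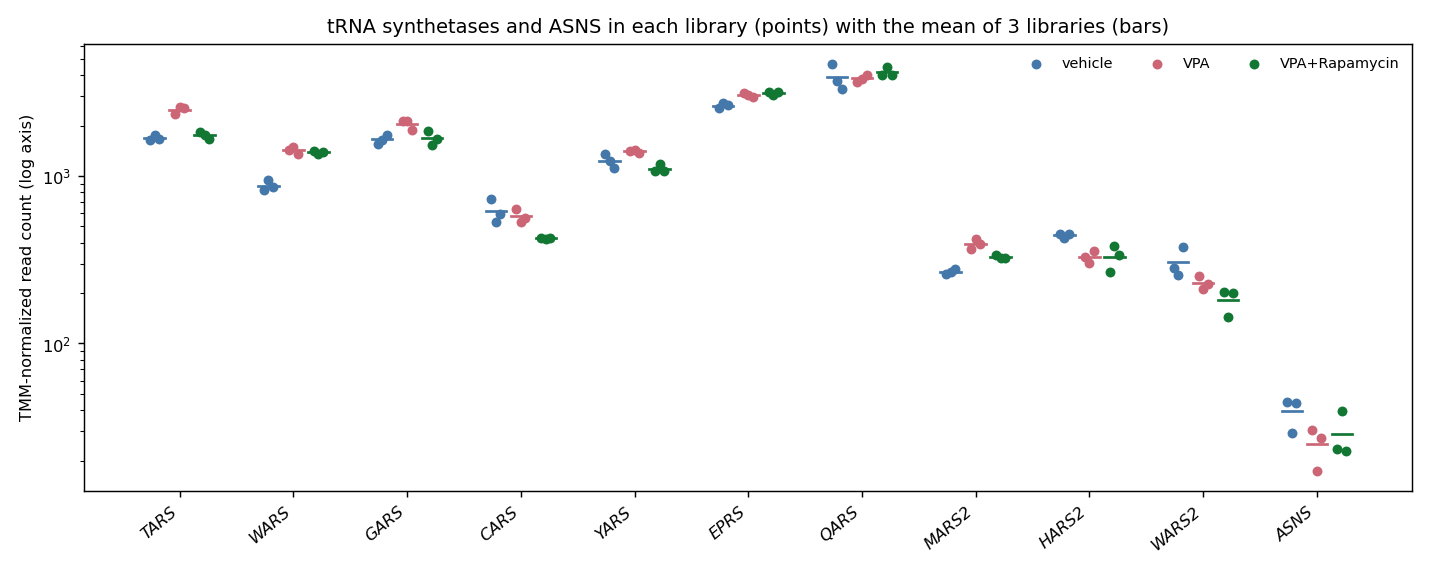
TMM-normalized read counts (log axis) of 10 synthetases and ASNS in each of 9 libraries, with bars at the mean of 3 libraries per group. TARS is high with VPA only, WARS stays high with VPA+Rapamycin, CARS is lowest with VPA+Rapamycin, and ASNS lies near 30 reads with overlapping groups.

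Adding Rapamycin to VPA lowered more of these genes than it raised. Against VPA, 8 of 69 tested members fell and 2 rose, beside 6.74% of all 17317 genes called, 3.73% as lowered and 3.01% as raised. The fallen members were SLC7A5, SLC7A10, SLC7A11, SLC43A3, SLC38A4, TARS, CARS and YARS, and the raised ones SLC1A3 and SLC38A7. No mitochondrial synthetase of 17 was called by edgeR or DESeq2, with 4 lowered and 1 raised at an unadjusted p under 0.05. The medians were -0.055 for transporters, -0.07 for cytosolic and -0.10 for mitochondrial synthetases, and 0.004 for all genes. When all 9 libraries shared a fit and its estimate of the spread, TARS (adjusted p = 0.0205) was the only member still called, and the other 9 had adjusted p-values of 0.0704 (SLC7A11) to 0.301 (SLC38A4). With single libraries left out, the count of lowered transporters went from 5 to between 2 and 4, with the lowest count without VPA library 2. The raised transporters numbered 0 without VPA library 1 or 2 or VPA+Rapamycin library 3, and 4 without VPA+Rapamycin library 2.

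TARS fell by 0.50 on the log2 scale with Rapamycin (SE 0.07, adjusted p = 0.000542), and no library left out ended the call. CARS, the cysteine enzyme, fell by 0.44 (SE 0.10, adjusted p = 0.0147), from 648, 520 and 596 reads in VPA to 432, 440 and 410. YARS, the tyrosine enzyme, fell by 0.33 (SE 0.08, adjusted p = 0.0124). The CARS call was lost without VPA library 1 (0.0972), and that of YARS without VPA library 2 (0.0748) or VPA+Rapamycin library 3 (0.0609). WARS had a log2 value of -0.04 (SE 0.07, adjusted p = 0.819), and GARS one of -0.28 (adjusted p = 0.0536). No cytosolic synthetase was raised by either tool, nor at an unadjusted p under 0.05.

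SLC7A5 fell by 0.55 with Rapamycin (SE 0.10, adjusted p = 0.00234) and kept the call when any library was left out. SLC7A11 had the steepest fall, by 1.34 (SE 0.29, adjusted p = 0.00999), though without VPA library 1, its highest, the adjusted p was 0.0661. SLC7A10 fell by 0.59 (SE 0.13, adjusted p = 0.00965), a call lost without VPA library 2 (0.0613). SLC43A3, a carrier of purine bases rather than amino acids, fell by 0.74 (adjusted p = 0.0213), and SLC38A4, a carrier of neutral amino acids, by 0.58 (adjusted p = 0.0411). Both calls were lost without VPA library 2 or 3 or VPA+Rapamycin library 2, that of SLC43A3 also without VPA+Rapamycin library 3, and that of SLC38A4 also without VPA library 1 or VPA+Rapamycin library 1 (0.0546 to 0.143). Of SLC43A3's exon bases, 29.9% are shared with another gene.

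The glial glutamate carrier SLC1A3 rose by 0.29 (SE 0.07, adjusted p = 0.0236) and the lysosomal glutamine carrier SLC38A7 by 0.38 (SE 0.11, adjusted p = 0.0442). The SLC1A3 call was lost without any VPA library or VPA+Rapamycin library 3 (0.0648 to 0.116), and the SLC38A7 call without VPA library 1 or 2 or VPA+Rapamycin library 1 or 3 (0.112 to 0.184). SLC38A9 had a log2 value of 0.35 (SE 0.11, adjusted p = 0.06), with all VPA+Rapamycin libraries above all VPA libraries. SLC36A1 (-0.03, adjusted p = 0.921), SLC3A2 (-0.15, adjusted p = 0.321), SLC1A5 (-0.22, adjusted p = 0.104), SLC38A2 (0.19, adjusted p = 0.206) and ASNS (0.20, adjusted p = 0.822) did not pass. SLC38A2 passed without VPA+Rapamycin library 2 (0.0256), and SLC38A9 did too (0.0182), as well as with no filter on low counts (0.0367) and among protein-coding genes only (0.0468). Of the transporters that rose with VPA, SLC1A1 had a log2 value of -0.23 with Rapamycin (SE 0.13, adjusted p = 0.298), SLC43A1 -0.045 (SE 0.19, adjusted p = 0.926), SLC7A3 -0.18 (SE 0.10, adjusted p = 0.296), SLC38A5 -0.48 (SE 0.24, adjusted p = 0.247), SLC7A8 -0.18 (SE 0.11, adjusted p = 0.381) and SLC38A10 0.02 (SE 0.09, adjusted p = 0.93).

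Compared with vehicle, VPA+Rapamycin SCOs still had more of many transporters. Of 33 tested, 14 rose and 2 fell (48.5%), with a median log2 fold change of 0.45; of all 17383 genes 19% were called, 9.81% as raised and 9.22% as lowered. Of the cytosolic enzymes, 1 rose (WARS) and 1 fell (CARS), and of the mitochondrial enzymes 1 rose and 1 fell (WARS2). This comparison and the preceding pair share libraries, so its values are given side by side with theirs. The raised transporters numbered 8 without VPA+Rapamycin library 1, 9 without VPA+Rapamycin library 2, and 10 to 17 when any other library was left out.

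SLC7A10, which here passed the filter on low counts only through the VPA+Rapamycin libraries, stood above vehicle by 4.81 on the log2 scale (SE 0.34, adjusted p = 4.49e-05). The next were SLC1A1 (2.29, SE 0.21, adjusted p = 0.000199) and SLC43A1 (2.16, SE 0.30, adjusted p = 0.00134). SLC38A3 stood at 1.26 (adjusted p = 0.00924), SLC38A10 at 1.09 (adjusted p = 0.000502), SLC7A3 at 1.00 (adjusted p = 0.0075) and SLC7A8 at 0.89 (adjusted p = 0.0193). Of these 7, SLC7A8 lost its call without vehicle library 2 or VPA+Rapamycin library 1 or 2 (0.0549 to 0.0831), and the others held when any library was left out. The 3 lysosomal carriers grouped above, chosen after their values were seen, all rose, beside 9.81% of all genes raised. SLC38A9 rose by 0.80 (SE 0.17, adjusted p = 0.00884), SLC36A1 by 0.72 (SE 0.16, adjusted p = 0.0124) and SLC38A7 by 0.68 (SE 0.14, adjusted p = 0.0102). Without VPA+Rapamycin library 1 SLC36A1 (0.0644) and SLC38A7 (0.0554) were lost, and SLC36A1 also without library 3 of that group (0.0589). SLC7A5 had a log2 value of 0.24 (SE 0.16, adjusted p = 0.306), although it passed without vehicle library 1 (0.0278). SLC3A2 (0.20, adjusted p = 0.347) and SLC1A5 (0.21, adjusted p = 0.393) did likewise (0.0434 and 0.0309 without that library). SLC7A11 stood at -0.96 (SE 0.33, adjusted p = 0.0648), and every VPA+Rapamycin library was below every vehicle library. Without vehicle library 1 it passed (0.0416), as it did without VPA+Rapamycin library 3 (0.0282), with no filter (0.0306) and with all 9 libraries fitted together (0.0347).

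On the lowered side, SLC36A4 fell by 0.75 (SE 0.13, adjusted p = 0.00406), a call that held when any library was left out. SLC38A2 fell by 0.69 (SE 0.19, adjusted p = 0.0285). WARS2, the mitochondrial tryptophan enzyme, fell by 0.76 (SE 0.20, adjusted p = 0.0241), with 289, 237 and 370 reads in vehicle and 207, 150 and 191 in VPA+Rapamycin. CARS fell by 0.55 (SE 0.14, adjusted p = 0.0224). The SLC38A2, WARS2 and CARS calls were all lost without any single VPA+Rapamycin library (0.0593 to 0.118), and without vehicle library 3 the SLC38A2 value was -0.39 (adjusted p = 0.0198). WARS stayed above vehicle by 0.65 (SE 0.11, adjusted p = 0.00291). TARS stood at 0.05 (SE 0.10, adjusted p = 0.768) and ASNS at -0.47 (SE 0.36, adjusted p = 0.396).

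Other genes of the amino acid response outside the rule moved too. A list of ATF4 targets and related genes, ATF4 included, was drawn up with earlier results of these data known. Of its 24 tested genes, 10 rose and 2 fell with VPA (50%, beside 32.1% of all genes), with a median log2 fold change of 0.22. The smallest adjusted p-values belonged to TRIB3, a pseudokinase (1.49, adjusted p = 8.96e-05), VLDLR, a lipoprotein receptor (-1.15, adjusted p = 0.000125), and 2 mitochondrial enzymes of folate metabolism, SHMT2 (0.85, adjusted p = 0.00189) and ALDH1L2 (1.31, adjusted p = 0.00426). With Rapamycin added, 8 of 24 fell against VPA (33.3%, beside 3.73% of all genes lowered) and none rose, with a median of -0.39; 1 was raised at an unadjusted p under 0.05, and DESeq2 also called none as raised. SHMT2 fell by 0.64 (adjusted p = 0.000407), PHGDH, which opens serine synthesis, by 0.49 (adjusted p = 0.00125), ATF4 itself by 0.43 (adjusted p = 0.00231) and MTHFD2, another folate enzyme, by 0.49 (adjusted p = 0.00614). ATF4 had a log2 value of -0.25 with VPA (SE 0.10, adjusted p = 0.0785) and fell by 0.68 in VPA+Rapamycin against vehicle (SE 0.11, adjusted p = 0.00269). In that last comparison 2 of 24 rose and 3 fell (20.8%), close to the 19% of all genes. Of the 13 synthetase partners none passed with Rapamycin against VPA by edgeR or DESeq2, with 1 lowered at an unadjusted p under 0.05, and against vehicle GATB alone rose (0.45, adjusted p = 0.0497).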

How the data were processed

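Poly-A RNA of 9 SCO libraries was sequenced after a NEBNext Ultra kit; use of strand is not given in the sources used here. The submitters' processing notes name HISAT2 2.0.5 and featureCounts 1.5.0-p3. The deposited tables, 1 per pair of conditions, hold raw read counts per gene made by the authors, and FPKM values (counts scaled to gene length and library size) that the authors computed from them. Gene positions are in GRCh38. Their columns of fold changes, p-values and adjusted p-values were not used, nor were 18 columns of size-factor-scaled values.

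The members and gene lists were chosen with earlier results of these data known. Counts were tested per table with edgeR 4.0.16 in R 4.3.3 (TMM normalization, filterByExpr with a minimum count of 10, quasi-likelihood F test) and Benjamini-Hochberg adjustment over all genes tested; SE is the log2 fold change divided by the root of F. The code was tested on simulated data. There edgeR recovered 42.4% to 65.6% of set log2 changes of 0.75 and 72.2% to 84.6% of those of 1.5. Of its calls 6.79% to 9.35% were false, so a gene that did not pass may still have changed. DESeq2 1.42.0 (an NA adjusted p stays NA), upper-quartile scaling, filters, a replicate block, a fit of all 9 libraries and leaving out each library were alternatives. RPKM values (the same scaling) were recomputed from TMM-scaled counts; the deposited FPKM values were an alternative. Named genes were SLC7A5, SLC3A2, SLC7A11, SLC1A5, SLC38A2, SLC36A1, SLC38A9 and ASNS, then up to 8 raised and 8 lowered called members per comparison, members that were exceptions to a statement on their class, and up to 4 genes per list by adjusted p. Promoter letters are from RefSeq. Of the members, 41 overlap another gene in the tables, and reads in such overlaps could not be told apart. Depth was 15290436 to 17417478 reads on genes per library. 1 called member is counted but not reported here by name.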

Additional observations from a re-analysis of the deposited data

How the results depend on the processing

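Counts are given as transporters raised and lowered, then cytosolic and mitochondrial synthetases. With a log2 fold change of at least 1 asked for, VPA against vehicle left 7 transporters raised and 0 lowered, 0 cytosolic raised, and 0 mitochondrial raised or lowered; VPA+Rapamycin against VPA left 0 raised and 1 lowered transporter and 0 lowered cytosolic enzymes; VPA+Rapamycin against vehicle left 6 raised and 0 lowered transporters and 0 synthetases of either class. The fit of all 9 libraries gave, for VPA+Rapamycin against VPA, 0 transporters raised, 0 lowered and 1 cytosolic enzyme lowered, and against vehicle 4 transporters lowered, 2 cytosolic raised, and 2 mitochondrial raised and 2 lowered. With no filter on low counts, mitochondrial enzymes lowered were 0 (VPA against vehicle) and 1 (VPA+Rapamycin against VPA), and transporters lowered against vehicle 4. The causes were not tested.

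With the replicate block these counts were 0, 1 and 4 as well. The block ended the VPA calls of GARS (0.119), HARS2 (0.0585), SLC38A1 (0.0831) and SLC38A9 (0.0544), and SLC1A5 with VPA (0.0459) and SLC7A11 against vehicle (0.0228) passed under it; no other call of the members named here changed with it, and the block was not run for genes outside the rule. Correlations of same-numbered libraries ran from -0.0575 to 0.143, not over 0.1 for every pair, and whether a shared number marks a shared clone is not given in the labels, so the block was kept as an alternative; 2 of 6, 5 of 6 and 3 of 6 libraries correlated best with their own number (VPA against vehicle, VPA+Rapamycin against vehicle and against VPA).

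Leaving out 1 library gave, for VPA against vehicle, 10 to 18 transporters raised and 2 to 4 lowered, 2 to 3 cytosolic raised and 0 lowered, 1 to 4 mitochondrial raised and 0 to 2 lowered. For VPA+Rapamycin against VPA it gave 0 to 4 and 2 to 4 transporters, 0 and 2 to 4 cytosolic, and 0 and 0 to 1 mitochondrial enzymes. For VPA+Rapamycin against vehicle it gave 8 to 17 and 1 to 4 transporters, 1 and 0 to 1 cytosolic, and 0 to 2 and 0 to 1 mitochondrial enzymes. Signs turned for VPA+Rapamycin against VPA only in SLC36A1 (0.013, 0.016 and 0.098 without VPA library 2, VPA library 3 and VPA+Rapamycin library 2, and -0.123 at the lowest) and ASNS (-0.009 and -0.108 without VPA library 2 and VPA+Rapamycin library 2, and 0.36 at the highest), neither of them called. Levels from the deposited FPKM moved by less than 1 SD in 24 of 24 values. Genes under about 100 reads, such as ASNS, SLC7A11 and SLC43A1, have wide errors.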

Other observations

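Amino acid transporters of other families included the sharpest contrasts among the vesicular carriers that load transmitter into synaptic vesicles. SLC17A6, the glutamate carrier of spinal cord neurons, had 174, 199 and 468 reads in vehicle, 10, 7 and 9 in VPA and 31, 35 and 35 in VPA+Rapamycin. It passed the filter on low counts only through the vehicle libraries for VPA against vehicle, and only through the VPA+Rapamycin libraries for VPA+Rapamycin against VPA. It fell by 5.08 on the log2 scale with VPA (SE 0.45, adjusted p = 3.03e-05) and was 1.97 higher with VPA+Rapamycin than with VPA (SE 0.42, adjusted p = 0.00865). SLC17A7, its relative, had 18, 7 and 34 reads in vehicle, 154, 132 and 142 in VPA and 72, 97 and 85 in VPA+Rapamycin. For VPA against vehicle, SLC17A7 passed the filter on low counts only through the VPA libraries. It rose by 2.78 with VPA (SE 0.40, adjusted p = 0.000494) and fell by 0.73 with Rapamycin added (SE 0.19, adjusted p = 0.0288). SLC32A1, the vesicular carrier of GABA and glycine, went from 284, 274 and 238 reads to 149, 63 and 135 with VPA (log2 -1.28, SE 0.26, adjusted p = 0.00363) and to 226, 267 and 184 with VPA+Rapamycin (0.99 above VPA, adjusted p = 0.0128).

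This list of other families was also drawn up with earlier results of these data known. In it 4 of 15 tested genes rose and 3 fell with VPA (46.7%, beside 32.1% of all genes). With Rapamycin added to VPA, 3 of 16 rose and 1 fell (25%, beside 6.74%). Against vehicle, 3 of 16 rose and 2 fell (31.2%, beside 19%). The taurine carrier SLC6A6 fell by 0.68 with VPA (SE 0.16, adjusted p = 0.0074).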
